A study of Mus musculus with 2 samples.

Results

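The genes for burning ketone bodies and branched-chain amino acids were followed in the newborn mouse heart. The 8 members were the ketone enzyme genes Bdh1, Oxct1 and Acat1 and the amino acid enzyme genes Bcat1, Bcat2, Bckdha, Bckdhb and Bckdk. They were picked by symbol among 43346 genes of the deposited tables, and the rule that names them uses no measured value, although it was written with earlier results of these data known. Hearts were taken at postnatal day 0 from mice of strain B6NTac;B6NCrl/Lap, pooled over both sexes, and made up the 1 group of the series, newborn heart. Replicate 1 came from 15 pooled mice and replicate 2 from a pool whose size the labels did not give, and both carried the same donor label. The libraries were stranded total RNA above 200 nucleotides after depletion of ribosomal RNA. With 1 group there was no comparison between conditions, and every statement concerns 2 whole-organ libraries. In whole tissue, fewer cells of a type and less RNA per cell cannot be told apart.

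Ketone bodies, acetoacetate and beta-hydroxybutyrate, are made mainly in the liver from the acetyl-CoA of fat. The heart takes up both through monocarboxylate transporters and burns them: BDH1 oxidises beta-hydroxybutyrate, OXCT1 (also called SCOT) activates acetoacetate with CoA taken from succinyl-CoA, and the thiolase ACAT1 splits the product into acetyl-CoA. OXCT1 serves use alone, while BDH1 and ACAT1 work in both directions. Leucine, isoleucine and valine first lose their amino group to BCAT1 in the cytosol or BCAT2 in mitochondria. The branched-chain ketoacid dehydrogenase complex then commits them to breakdown. BCKDHA and BCKDHB form its first component, the kinase BCKDK switches that component off by phosphorylation and the phosphatase PPM1K switches it back on.

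Depth was similar in both libraries, with 69946215 expected counts over genes in replicate 1 and 73615802 in replicate 2. All 5 cardiomyocyte markers listed were detected, at a summed level of 7830 TPM in replicate 1 and 7746 TPM in replicate 2. Levels are in TPM (transcript abundance relative to the library's total), which divides counts by transcript length and scales each library to the same total. Fibroblast, endothelial, macrophage and erythroid markers were all detected. Their sums were 239, 199.8, 28.6 and 3111 TPM in replicate 1 and 314, 190.3, 32.4 and 3724 TPM in replicate 2, with all 5 fibroblast and all 5 erythroid markers higher in replicate 2. Some other lists differed more. Smooth muscle markers, all 4 detected, summed to 306 TPM in replicate 1 and 629 TPM in replicate 2, and 4 urothelial markers to 0.40 and 60.33 TPM, with Krt20 at 0 counts in both. Lymphoid and thymus markers summed to 5.58 and 0.01 TPM, with Cd3e at 0 counts in both. Brown fat markers summed to 187 and 288 TPM, of which Cox7a1, which heart muscle also expresses, made up 180.28 and 274.74 TPM. Prdm16 was at 2.55 and 2.45 TPM, Cidea at 4.14 and 11.20 TPM and Ucp1 at 0 counts in both. Cox7a1, Prdm16, Cidea and the 4 smooth muscle genes were named after their values were seen. Liver markers, of which 3 of 6 were detected in both replicates, summed to 24.5 and 26.9 TPM. The part of these differences in the results below was not tested, except where a value is given.

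Of the 8 members, 7 reached 1 TPM in both replicates, against 24.2% of all genes in the tables. Oxct1, Bckdk, Acat1 and Bckdha were the abundant members, Bcat2 and Bckdhb were intermediate, Bdh1 was low and Bcat1 was at the edge of detection. Their mean levels placed Acat1 above 92.6% of the protein-coding genes detected in both replicates, Bckdha above 90.8%, Bckdhb above 68.7% and Bdh1 above 18.3%. The order was the same in both replicates except for Bckdk, which followed Oxct1 and Acat1 in replicate 1 and led in replicate 2. By mean level no neighbours in the order Oxct1, Bckdk, Acat1, Bckdha, Bcat2, Bckdhb, Bdh1, Bcat1 were further apart than single genes commonly differed between the replicates (the limit of 2.15 on the log2 scale defined with the gene pairs), and the ranges of Bckdk overlapped those of Oxct1 and Acat1. Bckdhb over Bdh1, at 2.11 and 2.05, and Bdh1 over Bcat1, at 1.47 and 1.71, came nearest to it.

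**Figure D1:**
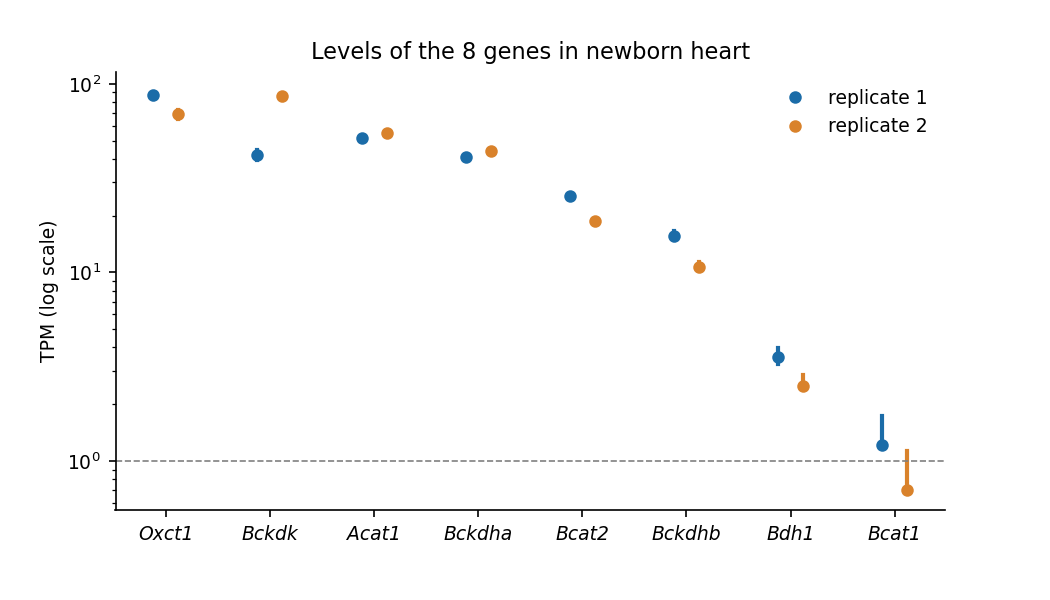
TPM (log axis) of each of the 8 genes in replicate 1 (blue) and replicate 2 (orange). Points are the deposited TPM, vertical lines the deposited intervals and the dashed line 1 TPM. Bckdk stands at 42.1 and 85.9 TPM, the widest gap, and Bcat1 straddles the line.

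RefSeq start windows were available for 7 of the 8 members, of which 4 had a pair of annotated starts. Of these 4, Bcat1, Bckdhb and Bdh1 had more TPM at 1 start of the pair than at the other, which such estimates will almost always show. At the downstream start of Bcat2, the fourth, no transcript with known coordinates began within 300 bases, so that pair could not be compared. The windows of Bcat1 and Bdh1, the lowest members, are printed as examples, to set the sequence at the start with more TPM beside the other. Each runs 5′ to 3′ from 250 bases before to 50 bases after the RefSeq start (GRCm38.p6), and capitals mark matches, on either strand, to 5 motifs. Of 32851 mouse windows of this length, 13.6% hold the TATA box TATAAA, 37.4% the CCAAT box CCAAT, 35.7% the GC box GGGCGG, 7.15% the E-box CACGTG and 16.3% the nuclear receptor motif AGGTCA.
Bcat1 upstream start, chr6:145076108-145076407, minus strand: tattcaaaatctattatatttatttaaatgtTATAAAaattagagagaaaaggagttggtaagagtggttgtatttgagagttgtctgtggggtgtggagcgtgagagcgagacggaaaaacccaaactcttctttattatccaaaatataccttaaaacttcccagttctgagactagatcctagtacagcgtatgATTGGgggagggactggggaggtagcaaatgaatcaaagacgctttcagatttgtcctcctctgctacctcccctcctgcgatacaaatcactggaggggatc
Bcat1 downstream start, chr6:145048763-145049062, minus strand: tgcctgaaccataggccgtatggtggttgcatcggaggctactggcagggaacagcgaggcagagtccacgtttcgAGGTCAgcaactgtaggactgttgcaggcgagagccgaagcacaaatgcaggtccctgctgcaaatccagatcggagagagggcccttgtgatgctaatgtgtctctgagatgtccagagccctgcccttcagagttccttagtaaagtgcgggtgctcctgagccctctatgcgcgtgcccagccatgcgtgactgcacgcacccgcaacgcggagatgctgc
Bdh1 upstream start, chr16:31422047-31422346, plus strand: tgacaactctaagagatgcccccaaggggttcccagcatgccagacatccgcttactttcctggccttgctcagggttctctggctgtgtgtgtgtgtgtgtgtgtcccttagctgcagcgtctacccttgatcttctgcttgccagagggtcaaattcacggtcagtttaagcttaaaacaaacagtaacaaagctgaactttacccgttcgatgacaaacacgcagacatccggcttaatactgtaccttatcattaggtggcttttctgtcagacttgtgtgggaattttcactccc
Bdh1 downstream start, chr16:31428503-31428802, plus strand: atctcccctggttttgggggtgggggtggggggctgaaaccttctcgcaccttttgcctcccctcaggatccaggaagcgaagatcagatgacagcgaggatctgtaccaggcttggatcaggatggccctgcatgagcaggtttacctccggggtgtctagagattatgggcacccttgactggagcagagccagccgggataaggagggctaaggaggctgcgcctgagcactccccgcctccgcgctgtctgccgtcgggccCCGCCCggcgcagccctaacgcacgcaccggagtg

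Transcripts beginning within 300 bases of the upstream Bcat1 start held 100% of its TPM in both replicates, and those of the downstream start 0%. By posterior mean estimates the shares were 83.65% and 77.30% upstream and 0.12% and 0.19% downstream, and the rest lay at neither start. The favoured window holds a TATAAA match and a CCAAT match and has 6 CG pairs, and the other holds an AGGTCA match and 16 CG pairs, against a median of 7. For Bdh1 the downstream start held 34.56% of TPM in replicate 1 and 100% in replicate 2, and the upstream start 8.04% and 0%, and in replicate 1 most of its TPM, 57.40%, lay at neither start, in Bdh1-202, which begins farther downstream. The downstream window of Bdh1 holds a GGGCGG match and 17 CG pairs, and the upstream one no match and 7 CG pairs. A match describes letters only, and a start is known here only through the estimated transcript shares.

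Among the enzymes of ketone use, Oxct1 had the highest level. Oxct1 (ENSMUSG00000022186.10, GRCm38 chromosome 15, 4026383 to 4155344, plus strand) was at 87.24 TPM in replicate 1 and 69.19 TPM in replicate 2, from 20236 and 17175 expected counts. The mean was 78.2 ± 12.8 TPM (SD, n = 2), and the deposited intervals, 83.1 to 90.6 and 65.0 to 72.3 TPM, did not overlap. Non-overlap was common, however: it held for all 8 members and for 73.3% of all genes averaging at least 1 TPM, so the intervals covered less than the spread between isolates.

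Acat1, the mitochondrial acetoacetyl-CoA thiolase gene (ENSMUSG00000032047.5, chromosome 9, 53580522 to 53610382, minus strand), was at 51.30 and 55.00 TPM in replicates 1 and 2, a mean of 53.2 ± 2.62 TPM. It was among the steadiest members. Acat1 also closes the breakdown of isoleucine, so its transcript serves both pathways.

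Bdh1, which interconverts the ketone bodies (ENSMUSG00000046598.10, chromosome 16, 31422280 to 31458901, plus strand), was far lower, at 3.54 and 2.51 TPM, a mean of 3.03 ± 0.728 TPM. Oxct1 exceeded Bdh1 by 24.6 times in replicate 1 and 27.6 times in replicate 2, and Acat1 exceeded Bdh1 by 14.5 and 21.9 times. The enzyme of the entry step for beta-hydroxybutyrate had the lowest RNA level of the 3 genes of use in both libraries.

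Levels of gene pairs were compared as log2 TPM ratios within each library, with 0.1 TPM added to each value. A pair was called unequal when its ratio pointed the same way in each library and passed 2.15 there, the 95th percentile of the absolute differences of single genes between the replicates. Of 21 pairs, 10 were called, all with the first-named gene higher. The share of other gene pairs passing this limit was not computed, so the count describes these pairs and does not set them apart. The limit is wide for well-expressed genes: over genes averaging at least 10 TPM it was 1.28, and 13 pairs passed it. Some of the 13 hold a gene averaging below 10 TPM, outside the set that gave this limit. Only 1 pair, Oxct1 over Oxct2a, passed the 99th percentile, 4.85. The ratios of Oxct1 to Bdh1, at 4.58 and 4.73, and of Acat1 to Bdh1, at 3.82 and 4.40, were called. Oxct1 over Acat1, at 0.76 and 0.33, was inside both limits, and the ranges of Oxct1 and Acat1 over the replicates did not overlap.

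**Figure D2:**
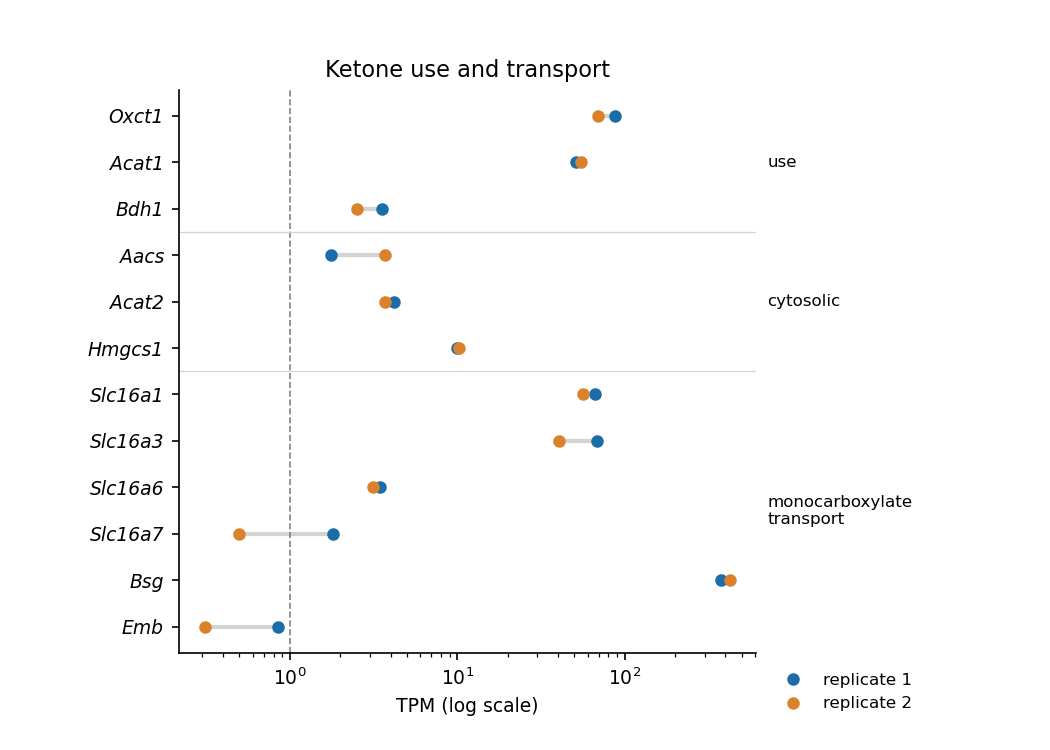
TPM (log axis) of genes of ketone use, cytosolic enzymes and monocarboxylate transport in replicate 1 (blue) and replicate 2 (orange), joined by a grey line. Genes at 0 are left out, and the dashed line marks 1 TPM. Oxct1 and Acat1 stay above 50 TPM in both replicates, and Bdh1, at 3.54 and 2.51 TPM, lies well below them.

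Of the cytosolic and testis relatives of the ketone enzymes, all but Hmgcs1 were low or had no counts. Acat2, the cytosolic thiolase, was at 4.17 and 3.68 TPM, and Acat1 exceeded it by 12.3 and 14.9 times, a called pair. Aacs, which activates acetoacetate for lipid synthesis, was at 1.75 and 3.68 TPM, and Oxct1 exceeded Aacs by 49.9 and 18.8 times, also a called pair. Hmgcs1, an enzyme of cholesterol synthesis, averaged 10.1 ± 0.177 TPM. Oxct2a and Oxct2b, known from testis, and Bdh2, a cytosolic dehydrogenase, had 0 counts in both replicates. Counting error leaves room for up to 3 counts where none was seen, which put Oxct1 at least 4516-fold above Oxct2a in replicate 1 and at least 3760-fold in replicate 2. For Bdh2 the deposited intervals reached 0.287 TPM in replicate 1 and 0.1 TPM in replicate 2, above the level of 3 counts, so no bound on its ratio to Bdh1 is given.

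The transporters that bring ketone bodies into cells were present. Slc16a1 was at 66.55 TPM in replicate 1 and 56.25 TPM in replicate 2, close to the levels of Oxct1 and Acat1. Slc16a3, better known for lactate export, was at 67.94 and 40.57 TPM, and Bsg, their chaperone at the cell surface, at 377.54 and 424.52 TPM. Slc16a6 was at 3.44 and 3.14 TPM. Slc16a7 stood at 1.81 and 0.50 TPM and the chaperone Emb at 0.85 and 0.31 TPM, both lower in replicate 2. Thus 4 of the 6 transport genes were detected in both replicates.

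For branched-chain amino acids, the mitochondrial transaminase outweighed the cytosolic one. Bcat2 (ENSMUSG00000030826.13, chromosome 7, 45570153 to 45589711, plus strand) was at 25.33 TPM in replicate 1 and 18.62 TPM in replicate 2, a mean of 21.98 ± 4.74 TPM. Bcat1 (ENSMUSG00000030268.13, chromosome 6, 144993835 to 145076184, minus strand) was at 1.21 and 0.70 TPM, from 290 and 175 expected counts, a mean of 0.955 ± 0.361 TPM. The deposited intervals of Bcat1, 1.21 to 1.73 and 0.704 to 1.13 TPM, started at about its point estimates, and its posterior mean TPM was 1.45 and 0.91. Bcat2 exceeded Bcat1 by 20.9 and 26.6 times, and the log2 ratios of 4.28 and 4.55 were called.

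Both subunits of the first dehydrogenase component were detected, the alpha subunit at the higher level in each library. Bckdha, the alpha subunit of the first component and the target of the kinase (ENSMUSG00000060376.6, chromosome 7, 25629946 to 25658981, minus strand), was at 41.12 and 44.23 TPM, a mean of 42.7 ± 2.20 TPM. Bckdhb, its beta partner (ENSMUSG00000032263.10, chromosome 9, 83925145 to 84124240, plus strand), was at 15.60 and 10.71 TPM, a mean of 13.2 ± 3.46 TPM. Bckdha was 2.64 and 4.13 times Bckdhb. The log2 ratios, 1.39 and 2.04, passed the limit from genes at 10 TPM but not the wider one.

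The other parts of the complex framed these levels. Dbt, the acyltransferase core, was lowest at 5.71 and 4.04 TPM, and Bckdha over Dbt was called at 2.83 and 3.42. Bckdhb over Dbt, at 1.43 and 1.38, passed the limit from genes at 10 TPM alone, and Dbt itself lay below 10 TPM. Dld, the dihydrolipoamide dehydrogenase shared with the pyruvate and oxoglutarate complexes, was at 29.64 and 27.89 TPM. Bcat2 lay below Bckdha, with log2 ratios of -0.70 and -1.24, and above Bckdhb, with 0.70 and 0.79, inside both limits.

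The kinase gene was above the phosphatase gene. Bckdk (ENSMUSG00000030802.10, chromosome 7, 127904082 to 127910221, plus strand) was at 42.09 TPM in replicate 1 and 85.86 TPM in replicate 2, a mean of 64.0 ± 31.0 TPM. Ppm1k was at 8.77 and 8.93 TPM. Bckdk over Ppm1k was called, with log2 ratios of 2.25 and 3.25, but the call was lost in counts not divided by length. The call also rests on short Bckdk transcripts: the full-length Bckdk-201 alone was at 24.38 and 22.38 TPM. Bckdha and Bckdk were near equal in replicate 1, with a log2 ratio of -0.03, and Bckdk was higher in replicate 2, with -0.96, inside both limits. Bckdhb lay below Bckdk, at -1.43 and -2.99, past the limit from genes at 10 TPM alone.

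**Figure D3:**
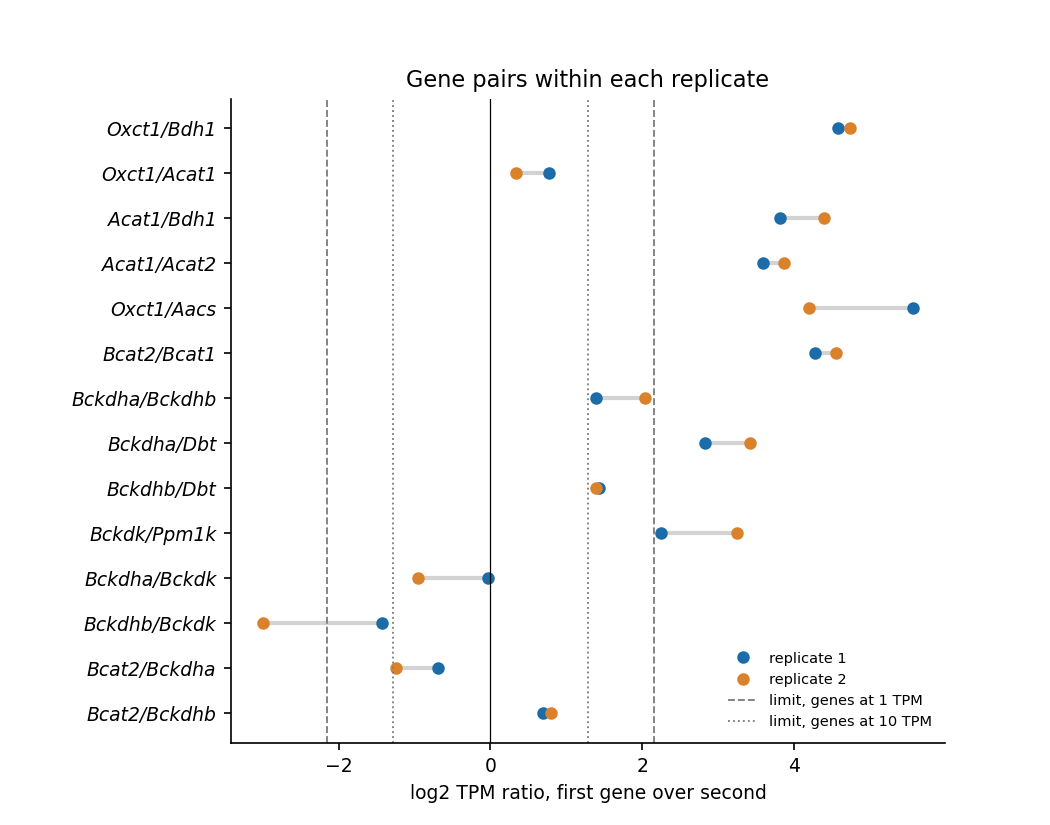
Log2 TPM ratio of the first gene over the second in replicate 1 (blue) and replicate 2 (orange) for the pairs described in the text whose second gene had counts. Dashed lines mark the limit of 2.15 and dotted lines that of 1.28. Oxct1 over Bdh1 and Bcat2 over Bcat1 lie beyond the dashed line in both replicates, and Bckdhb over Bckdk has the widest spread of the pairs shown, at -1.43 and -2.99.

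Between replicates, Bckdk was the 1 member 2-fold or more apart, after centring on the median gene. It was 1 of 7 members at a mean of 1 TPM, against 19.0% of such genes in all. By counts scaled for library size no member was 2-fold apart, against 15.0% of genes. The median log2 difference of the 7 members, replicate 2 over replicate 1, was -0.36, and their median absolute difference was 0.46, against 0.40 over all genes. Acat1, Bckdha and Bckdk were higher in replicate 2, with log2 differences of 0.08, 0.08 and 1.00. Oxct1, Bcat2, Bdh1 and Bckdhb were lower, with -0.36, -0.46, -0.50 and -0.56, and Bcat1, below the filter, had -0.73. No p-value was computed with 1 library on each side.

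The Bckdk difference was larger in TPM than in counts. It had 7372 expected counts in replicate 1 and 9403 in replicate 2, a log2 difference of 0.28 after scaling, but its effective length, the length over which fragments can start, was 1658.84 nucleotides in replicate 1 and 988.74 in replicate 2. The full-length transcript Bckdk-201 kept its level, at 24.38 and 22.38 TPM. The short Bckdk-202 was at 10.79 and 36.21 TPM from 317 and 1118 counts, and the short Bckdk-204, whose annotated 3′ end is incomplete, at 6.75 and 26.31 TPM from 459 and 1882 counts. Bckdk-202 was 567 nucleotides long in the deposited tables and is 1792 nucleotides long in GENCODE M21. The share of Bckdk-201 was 57.91% of TPM in replicate 1 and 26.07% in replicate 2, and 89.3% and 67.5% of counts.

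For Bdh1 TPM and counts differed in sign. By TPM it was lower in replicate 2 (log2 difference -0.50), but by scaled counts it was slightly higher (0.17), and its effective length was 1786.17 nucleotides in replicate 1 and 2833.79 in replicate 2. The 3122-nucleotide transcript Bdh1-203 held 34.56% of Bdh1 TPM in replicate 1 and 100% in replicate 2, while the 1496-nucleotide Bdh1-202 held 57.40% and 0%. The 3 Bdh1 transcripts with counts share 1 coding sequence of 1029 nucleotides in GENCODE M21, so the shares concern untranslated ends and transcript starts. Bdh1-202 begins at neither start printed above. Effective lengths 1.5-fold or more apart were seen for these 2 of 8 members, against 12.6% of genes averaging at least 1 TPM.

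The other members all kept the same leading transcript, 4 of them at similar shares and 2 at shares that differed more. Acat1, Bckdha and Bcat1 were each carried by 1 transcript, at 99.9% or more of TPM in both replicates. For Bckdha this was given, since the deposited tables hold only 1 transcript. By posterior mean estimates Bcat1-203, the leading Bcat1 transcript, held 81.77% and 76.54%. Oxct1 was split mainly between Oxct1-201, with 52.87% and 51.62%, and the shorter Oxct1-205, with 31.30% and 37.73%. Their coding sequences in GENCODE M21 are 1560 and 1458 nucleotides long. The 480-nucleotide Oxct1-202, which has no annotated coding sequence, held 15.83% and 10.56% of TPM, but 1.38% and 0.904% of counts. Bckdhb-201 held 78.12% of Bckdhb in replicate 1 and 99.66% in replicate 2, and Bckdhb-206, with another coding sequence, 14.85% and 0%. Bcat2-201 held 90.43% and 72.73%, and a 1905-nucleotide transcript without a name in GENCODE M21 held 6.88% and 27.27%. All 16 expected counts of the members were whole numbers. Genes with counts on the opposite strand overlap Oxct1 (BC037032, with 462 and 459 counts), Bckdha (B3gnt8, with 351 and 394) and Bdh1 (Gm15743, with 52 and 0), and although the libraries were stranded per the labels, whether counting used strand was not checked, so a share of such reads could not be told apart.

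**Figure D4:**
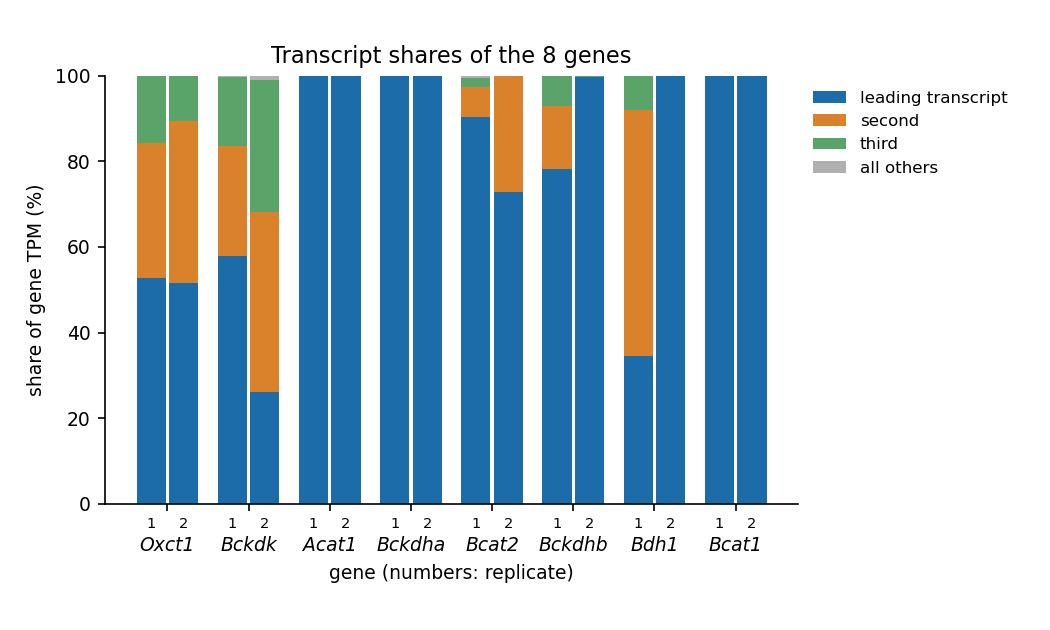
Share of each gene's TPM (%) in its leading transcript, the next ones and all others, in replicates 1 and 2 side by side. Acat1, Bckdha and Bcat1 show a single transcript, while the leading share of Bckdk is 57.91% and 26.07% and that of Bdh1 34.56% and 100%.

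Beyond the committed step, every listed gene of the leucine, isoleucine, valine and propionyl-CoA branches was detected. Of the 43 genes listed besides the members, which also cover other ketone enzymes, transporters and regulators, 36 reached 1 TPM in both replicates, against 24.2% of all genes. The 7 that did not were Bdh2, Oxct2a, Oxct2b, Slc16a7, Emb, Slc7a8 and Slc43a2. Of the 38 at a mean of 1 TPM, 3 were 2-fold or more higher in replicate 2 (10.1% of all such genes) and 5 lower (8.9%), and their median log2 difference was -0.12, against 0 over all genes. All 5 genes of the leucine branch were detected: Ivd, the isovaleryl-CoA dehydrogenase, was at 40.31 and 43.27 TPM, and Auh, the methylglutaconyl-CoA hydratase, at 14.70 and 16.19 TPM. The carboxylase subunits Mccc1, at a mean of 2.90 ± 1.55 TPM, and Mccc2, at 7.18 and 7.42 TPM, were lower, and Mccc1 was 2-fold lower in replicate 2.

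All 4 genes of the isoleucine branch and all 5 of the valine branch were detected as well. Echs1, the enoyl-CoA hydratase shared by both, was at 68.29 and 87.72 TPM. Hsd17b10, the dehydrogenase before ACAT1 in the isoleucine branch, was at 54.50 and 49.62 TPM, and Acadsb, the first step of that branch after the complex, at 9.07 and 9.38 TPM. In the valine branch Acad8 averaged 10.5 ± 2.11 TPM, and Hibch was at 14.61 and 17.59 TPM, Hibadh at 20.70 and 28.93 TPM and Aldh6a1 at 20.33 and 20.92 TPM.

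The propionyl-CoA branch, which takes isoleucine and valine carbon into the citric acid cycle, was complete. Pccb, the beta subunit of propionyl-CoA carboxylase, was at 21.08 and 21.36 TPM, while its partner Pcca was at 1.85 and 4.48 TPM. Pcca was 2-fold higher in replicate 2 by TPM but lower by scaled counts (log2 difference -0.34), with effective lengths 3.05-fold apart. The deposited intervals of Pcca, 2.06 to 4.31 and 4.29 to 7.21 TPM, overlapped, and its replicate 1 estimate lay below its own interval. Mcee, the epimerase, was at 10.54 and 3.32 TPM and lower in replicate 2 by counts as well (-1.66). Mut, the methylmalonyl-CoA mutase, was at 8.51 and 10.59 TPM, and its cofactor genes Mmaa and Mmab at 2.56 and 2.38 TPM and at 4.46 and 5.35 TPM.

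**Figure D5:**
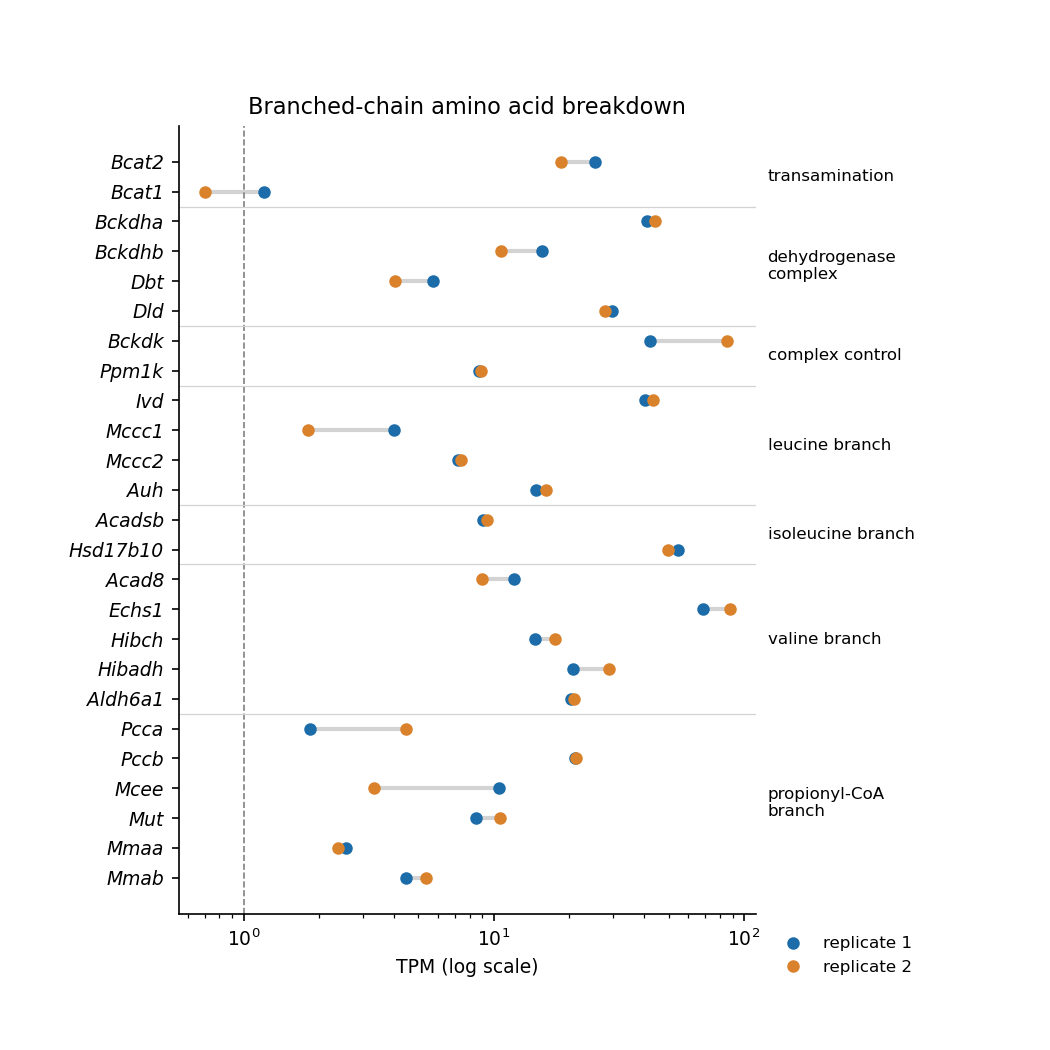
TPM (log axis) of the genes of branched-chain amino acid breakdown in replicate 1 (blue) and replicate 2 (orange), grouped by step, with the dashed line at 1 TPM. All but Bcat1 lie above 1 TPM in both replicates, and Mcee, Pcca, Mccc1 and Bckdk show the widest gaps.

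Most amino acid transporter genes were lower in replicate 2. Slc3a2, the heavy chain of the leucine exchanger, averaged 7.38 ± 3.70 TPM, and its light chain Slc7a5 was at 7.07 and 6.52 TPM. Slc43a1 was at 3.72 and 1.03 TPM, Slc43a2 at 1.57 and 0.95 TPM and Slc7a8 at 0.34 and 0.81 TPM. Slc25a44, the mitochondrial carrier of branched-chain amino acids, was at 6.61 and 4.55 TPM. Of the 5 at a mean of 1 TPM all were lower in replicate 2 and 2 of them, Slc3a2 and Slc43a1, by 2-fold or more, against 8.9% of all genes at that mean. Slc43a2 was nearly level by scaled counts (log2 difference -0.05), with effective lengths 1.61-fold apart and overlapping deposited intervals. Lymphoid markers were also lower in replicate 2, and their part was not tested.

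Regulators tied to these pathways were all detected. Klf15, a transcription factor of amino acid and lipid metabolism, was at 19.36 and 14.81 TPM. Ppara, a nuclear receptor for fatty acids, was at 4.83 and 3.08 TPM. Ppargc1a, a coactivator of oxidative metabolism, was at 22.27 and 14.97 TPM.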

How the data were processed

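Total RNA of newborn mouse heart was profiled in 2 biological replicates of 1 group. Per the deposited notes, files were made on assembly mm10 with the GENCODE M4 annotation; the sources used here name no quantification program. The authors deposited expected counts per gene and transcript, TPM and FPKM values scaled by length and library, posterior mean TPM, TPM intervals of unstated level, effective lengths, and each transcript's percent of gene TPM. Whether the pools shared animals is not stated, so the spread may be partly technical.

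Rows were matched without version to GENCODE M21 on GRCm38 (42462 of 43346 genes named). Differences are log2 ratios of TPM plus 0.1, replicate 2 over replicate 1, centred on the median gene (0.02) among those averaging at least 1 TPM. Counts were scaled by TMM with edgeR 4.0.16 (R 4.3.3) on rounded expected counts, with 1 added before logs. Other work used Python 3.11.15, numpy 2.4.6, pandas 2.3.3 and matplotlib 3.10.9. Start windows came from RefSeq. Some listed genes and pairs enter the counts but are not reported here. Members, lists and pairs were chosen with earlier results of these data known, and the motifs, the list of lipid-responsive genes and the alternatives for 4 non-members after the values were seen. Named were all members, all other reported genes of the pairs and all genes of the reported pathway lists of up to 6 genes. Of the longer list, the lipid-responsive genes, those 2-fold apart and some others were named. Genes of like pattern were not sought, since 2 replicates of 1 group give no pattern. Floors for a count of 0 and the deposited intervals do not cover the spread between pools. No group test, and so no p-value, was possible.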

Additional observations from a re-analysis of the deposited data

How the results depend on the processing

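No paired analysis was possible because the series has 1 group. The count of members 2-fold apart between replicates, 1, was 0 with TMM-scaled expected counts, with DESeq2 1.42.0 size factors on expected counts and with a pseudocount of 1 TPM, where Bckdk was at 0.28, 0.28 and 0.99 on the log2 scale. The 10 pairs called unequal became 1 with the limit at the 99th percentile, and 12 and 13 with a single replicate. Detected pathway genes, 36 of 43, fell to 16 at 10 TPM, and were 36 and 38 in single replicates. Members detected were 7 and 8 in single replicates. No ratio called unequal changed sign. No result with a call reversed. Of the other values rerun, for single genes, pairs and transcripts, 283 held, 19 moved, 9 became and 13 ceased to be called. Levels and transcript shares held if they moved by no more than the SD, so in a single replicate they held by construction. Most values that moved were levels in another unit, FPKM or TPM rescaled over nuclear protein-coding genes. These counts are therefore no measure of robustness. The log2 difference of Bdh1, not called, was 0.17 with both count scalings. Low counts limit Bcat1, with 290 and 175.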

Other observations

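Values of 13 genes known to respond to fatty acids, listed after their values had been seen, are given as a description with no test. Plin5, a lipid droplet protein of oxidative tissue, was at 6.07 TPM in replicate 1 and 15.56 TPM in replicate 2, and Angptl4, a secreted inhibitor of lipoprotein lipase, at 8.60 and 19.96 TPM. Ucp3, a mitochondrial carrier of muscle and brown fat, was at 0.03 and 4.16 TPM, from 3 and 685 expected counts, and averaged over 1 TPM through replicate 2 alone. All 11 genes at a mean of 1 TPM were higher in replicate 2, as were 5797 of 11594 such genes in all. Their median log2 difference was 0.53. Plin5, Angptl4 and Ucp3 were 2-fold or more higher, 3 of the 11, against 10.1% of all genes at that mean. Acot1, Cpt1a, Acot2 and Slc25a20 differed by 0.77, 0.62, 0.53 and 0.51, and Cpt1b and Plin2 by 0.17 and 0.16. Vnn1, below that mean, was at 0.43 and 0.90 TPM. Pdk4, the kinase that shuts off pyruvate dehydrogenase, was at 19.26 and 19.96 TPM. Acadm, a dehydrogenase of fatty acid oxidation, was at 84.10 and 87.23 TPM. Each was 0.03 apart on the centred log2 scale, the smallest differences of the 11. Fgf21 had 0 counts in both. Urothelial, smooth muscle, fibroblast and erythroid markers had higher sums in replicate 2, and their part in these values was not tested.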
